A study of Mus musculus with 6 samples.

Results

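The 36 genes described here mark the cells that line blood vessels or direct the growth of those vessels, and they were followed in the pancreas of mice that carry Myc in their acinar cells. They were chosen by gene symbol from the 23099 symbols of the deposited files: 31 are endothelial genes (junction and adhesion molecules, receptors, transcription factors and genes of particular vessel beds) and 5 are secreted ligands (Vegfa, Vegfb, Angpt1, Angpt2 and Pgf). Each symbol had 1 row in every file. Whole pancreas was taken at 8 weeks of age from wild-type (WT) and from Ela1-Myc mice, and polyadenylated RNA was sequenced in 3 libraries of each genotype. In the Ela1-Myc line the Myc oncogene is placed under the promoter of elastase 1, which is active in the enzyme-secreting acinar cells, so that the transgene is directed to cells that are not themselves endothelial. Strain, sex and the origin of each library from a separate animal are not given in the labels, and p-values therefore measure only the spread between these samples, which may be technical. The comparison of the 2 genotypes addresses how the vessel genes and their ligands stand in a pancreas in which acinar cells carry Myc.

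Endothelial cells form the inner lining of blood and lymph vessels and are joined by junctions that contain VE-cadherin (Cdh5) and PECAM-1 (Pecam1). Ligands of the VEGF family, released largely by the surrounding tissue, bind the receptor kinases Flt1, Kdr and Flt4 on these cells, and the angiopoietins bind Tek, which works together with Tie1. In the pancreas, capillaries with fenestrated walls run between the acini and are especially dense in the islets, which secrete their hormones into them.

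Values are the authors' adjusted FPKM, a fragment count corrected for transcript length and library size, divided by 100000, and the read depth of each library is unknown. Several features of the libraries touch all results. The summed values ranged from 669391 to 1948844 in WT and from 629597 to 1088320 in Ela1-Myc, and RNA integrity numbers were 7.1 to 7.3 in WT and 7.2 to 8.8 in Ela1-Myc. Of the 8802 genes with a mean of at least 1, between 592 and 1426 were listed at 0 in the WT libraries and between 0 and 29 in the Ela1-Myc libraries. In Ela1-Myc replicates 1 to 3 the level of Myc itself was 52.0, 34.4 and 34.2, whereas WT replicate 2 had 4.10 and both other WT libraries listed it at 0. On the deposited scale the median gene lay 1.22 log2 units higher in Ela1-Myc than in WT. After median-of-ratios scaling, which divides each library by the median ratio of its genes to their geometric mean over the libraries, that shift was 0.23. For each of the tested genes the change is therefore given on both scales. Ratios between genes within a library follow, and dividing a library by a single factor does not alter them. Quantile normalization can alter them, and the effect of the authors' adjustment on them is unknown.

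On the deposited scale most tested endothelial genes were higher in Ela1-Myc pancreas, as were most genes of all kinds, and none of the 4 tested ligands was called. All 31 endothelial genes were above 0 in all 6 libraries, and 4 of the 5 ligands were. A mean of at least 1 was reached by 27 of the 36 genes, 23 endothelial genes and 4 ligands, and these were tested with limma on log2(value + 1), a scale on which the change of low genes is understated. The mean was taken over all 6 libraries. Cldn5, Robo4, Mmrn2, S1pr1, Vwf, Tek, Tie1, Aplnr and Angpt1 had WT means below 1 and passed only through their Ela1-Myc values. Pgf, with an Ela1-Myc mean of 0.820, passed only through its WT values. On the deposited scale 17 of the 27 (63.0%) rose, against 70.2% of all 8802 genes tested, and 0 fell, against 0.239%. At an unadjusted p under 0.05, 18 were higher and 0 lower. All 17 were endothelial. Without 1 library the count of genes that rose was 12, 18 and 9 (WT replicates 1 to 3 left out) and 12, 11 and 8 (Ela1-Myc replicates 1 to 3 left out). After median-of-ratios scaling 0 of the 27 rose, against 18.3% of all genes tested, and 3 fell, against 8.02%. These 3 were the VEGF receptor Flt1 and the ligands Vegfb and Pgf. At an unadjusted p under 0.05, 1 gene was higher and 5 were lower on that scale. The median log2 change of the tested endothelial genes was 1.02 on the deposited scale and 0.056 after scaling, and that of the tested ligands was 0.11 and -1.15, beside 1.22 and 0.23 over all genes tested. Quantile normalization placed the endothelial median at -0.33 and the ligand median at -1.43. The share of endothelial genes that rose on the deposited scale (73.9%) was thus close to that of all 8802 genes. Their median lay below that of the 8802 genes on both scales. The 4 tested ligands each lay lower than the median of the 8802 genes on either scale, whereas Angpt2, the ligand below the filter, had all Ela1-Myc values above all WT values on both. These comparisons are not like for like. The 8802 genes include genes listed at 0 in WT libraries, whereas all 27 tested members were above 0 in all 6 libraries. No share of calls or median was taken over genes above 0 in all 6 libraries alone. In whole tissue, fewer cells of a type and less RNA per cell cannot be told apart.

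The summed level of the 31 endothelial genes was 54.3, 76.6 and 38.9 across WT replicates 1 to 3, and it was 157.3, 176.2 and 169.6 across those of Ela1-Myc. No WT library reached the lowest Ela1-Myc sum. After scaling the sums were 129.0, 79.1 and 69.2 across WT replicates and 90.8, 112.5 and 85.3 across Ela1-Myc replicates, and the groups overlapped. For the 5 ligands the sums on the deposited scale were 11.0, 28.4 and 16.9 for the 3 WT libraries, compared with 26.9, 11.8 and 20.5 for those of Ela1-Myc, with overlapping groups. The ratio of summed ligands to summed endothelial genes, which a single factor per library does not alter, was 0.202, 0.371 and 0.434 in the WT libraries against 0.171, 0.0672 and 0.121 in Ela1-Myc. Each Ela1-Myc library lay below each WT library in that ratio. Vegfb was the largest term of the ligand sum and Plvap the largest of the endothelial sum in all 6 libraries, and the value is given as a description, with no test.

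**Figure D1:**
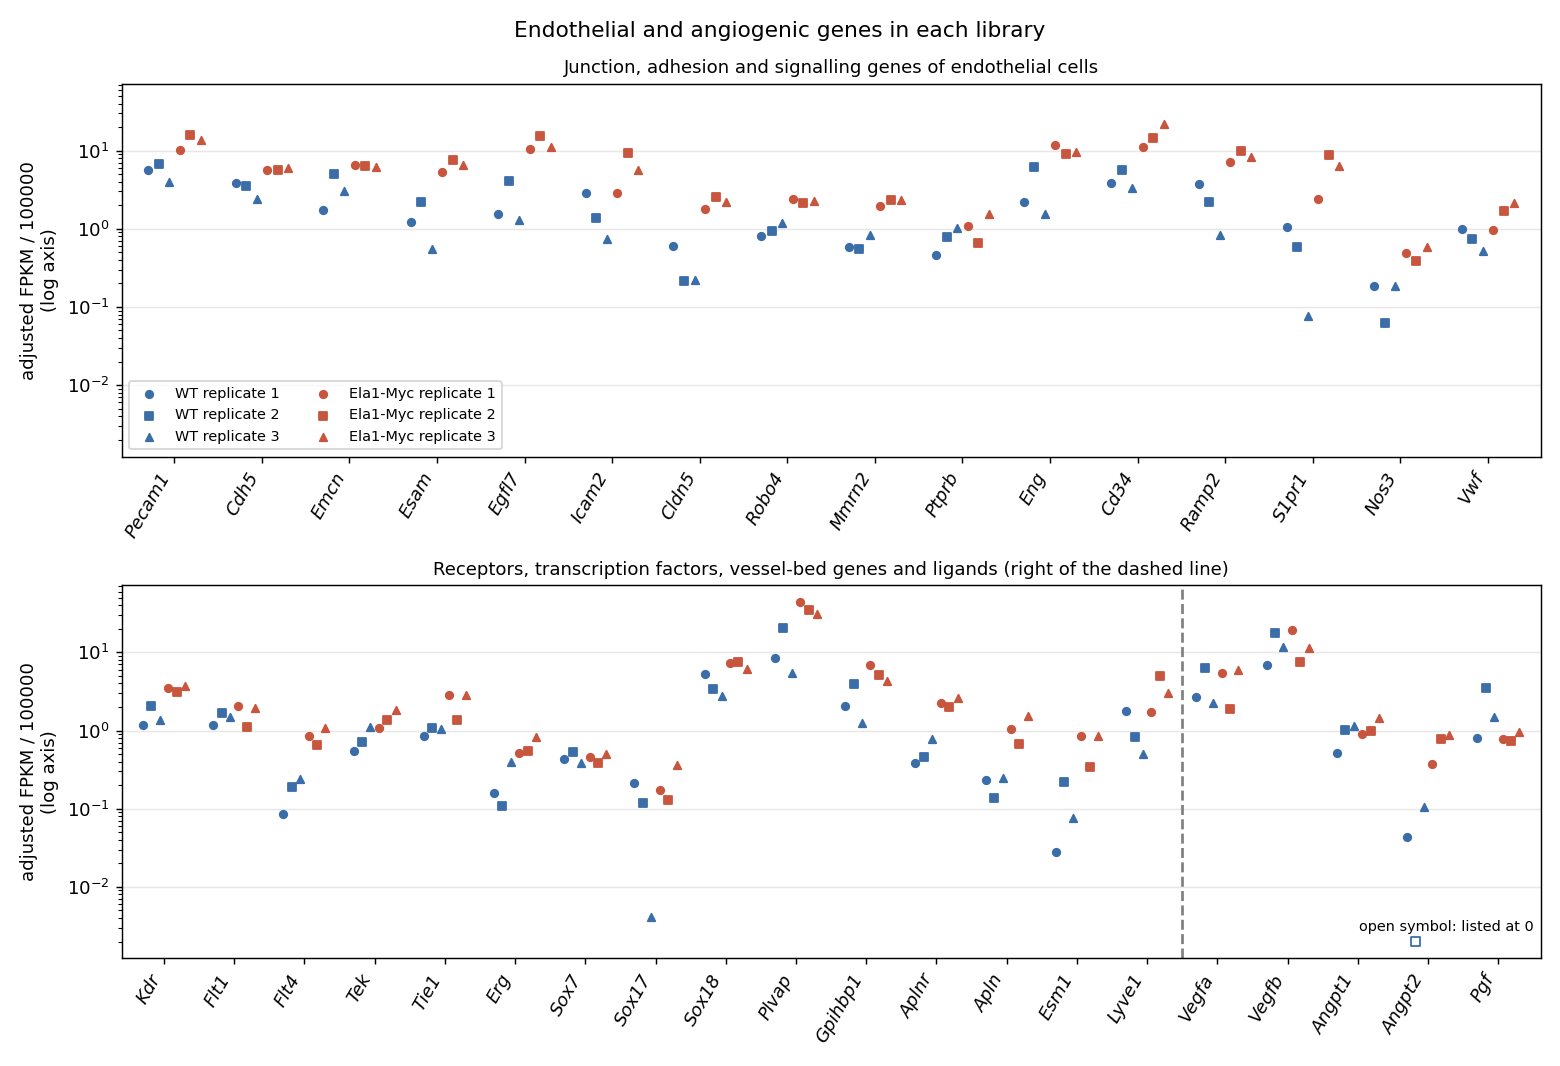
Adjusted FPKM divided by 100000 (y axis, log scale) of each of the 36 genes (x axis) in the 3 WT libraries (blue) and the 3 Ela1-Myc libraries (red), with 1 symbol for each replicate; the open symbol is Angpt2 in WT replicate 2, listed at 0. For 24 of the 31 endothelial genes (77.4%) all red symbols lie above all blue symbols, as for 67.3% of the 11198 genes above 0 in all 6 libraries. Both colours overlap for Vegfa, Vegfb, Angpt1 and Pgf.

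Counted by the order of the libraries alone, 24 of the 35 genes above 0 in all 6 libraries (68.6%) had all 3 Ela1-Myc values above all 3 WT values on the deposited scale, against 67.3% of the 11198 genes of this kind. None (0 of 35) lay wholly below, against 0.786%. After scaling, 2 genes (5.71%), Esam and Egfl7, lay wholly above WT, against 17.8% of genes, and 10 (28.6%) lay wholly below, against 18.2%. The 10 were Cdh5, Emcn, Ptprb, Kdr, Flt1 and Sox7 among the endothelial genes and all 4 ligands above 0 in every library. The order of the Ela1-Myc and WT libraries thus turned over between the scales for Cdh5, Emcn and Kdr.

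The junction, adhesion and signalling genes of endothelial cells formed the largest set, with 16 members. Of the 14 tested, 11 rose on the deposited scale, beside 70.2% of all genes, with a median log2 change of 1.30, beside 1.22, and none of the 14 was called in either direction after scaling, where the median was 0.26 (1 of them, Egfl7, lay closest to the threshold at an adjusted p of 0.0624). Pecam1 (chromosome 11, 106654218 to 106715281, GRCm38), the adhesion molecule used most widely to mark endothelium and also carried by platelets and leukocytes, was at 5.68, 6.74 and 3.99 across WT replicates and 10.1, 15.9 and 13.5 across Ela1-Myc replicates. All Ela1-Myc libraries were above all WT libraries, with means of 5.47 ± 1.39 and 13.2 ± 2.91 (SD, n = 3 each) and a log2 change of 1.13 ± 0.47 (SE; limma adjusted p = 0.0436). After scaling the change was -0.22 ± 0.34 (adjusted p = 0.645), so its direction turned. Its call on the deposited scale was kept without WT replicate 2 and lost without any other single library, with adjusted p-values of up to 0.177. Cdh5 (chromosome 8, 104101625 to 104144502), the cadherin of endothelial junctions, was at 3.89, 3.53 and 2.42 for the 3 WT libraries, compared with 5.71, 5.62 and 5.92 for those of Ela1-Myc. The Ela1-Myc libraries lay within a narrow range above WT, but the log2 change of 0.67 ± 0.37 did not pass the test (adjusted p = 0.109), and it was -0.56 ± 0.33 after scaling (adjusted p = 0.232).

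The genes with the largest log2 change on the deposited scale were Egfl7, S1pr1, Plvap and Esam. Egfl7 (chromosome 2, 26581056 to 26592682), a protein secreted by endothelial cells into their matrix, was at 1.57, 4.05 and 1.31 in the WT libraries against 10.6, 15.3 and 11.3 in Ela1-Myc. Every Ela1-Myc library was above the highest WT library, and this order held after scaling, at 3.72, 4.18 and 2.33 across WT replicates and 6.11, 9.77 and 5.67 across Ela1-Myc replicates. The change of Egfl7 was 2.09 ± 0.44 on the deposited scale (adjusted p = 0.00108) and 0.88 ± 0.29 after scaling. Esam (chromosome 9, 37528089 to 37538319), an adhesion molecule of endothelial tight junctions, was at 1.21, 2.21 and 0.544 for the 3 WT libraries, compared with 5.26, 7.64 and 6.53 for those of Ela1-Myc. Here too the groups stood apart on both scales, with a change of 1.74 ± 0.36 on the deposited scale (adjusted p = 0.00102) and 0.67 ± 0.30 after scaling (adjusted p = 0.141). Cldn5 (chromosome 16, 18776847 to 18778262), the claudin that seals endothelial tight junctions, was at 0.603, 0.212 and 0.223 in the WT libraries against 1.79, 2.54 and 2.19 in Ela1-Myc. The lowest Ela1-Myc library was above the highest WT library for Cldn5 on the deposited scale. Its mean was 6.28-fold that of WT (log2 change 1.24 ± 0.25, adjusted p = 0.000834), and after scaling the groups overlapped (0.48 ± 0.29, adjusted p = 0.246).

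S1pr1 (chromosome 3, 115710433 to 115715055), the receptor for sphingosine 1-phosphate that stabilises endothelial junctions and is also carried by lymphocytes, spread widely within both groups. It was at 1.04, 0.583 and 0.0761 across WT replicates and 2.43, 8.81 and 6.44 across Ela1-Myc replicates. Its lowest Ela1-Myc value, in replicate 1, was above its highest WT value, also in replicate 1, and the change was 2.06 ± 0.39 (adjusted p = 0.000582), or 1.14 ± 0.51 after scaling (adjusted p = 0.139). Icam2, an adhesion molecule of endothelium and leukocytes, was at 2.87, 1.38 and 0.744 for the 3 WT libraries, compared with 2.89, 9.33 and 5.72 for those of Ela1-Myc. Its levels in WT replicate 1 and Ela1-Myc replicate 1 were nearly equal, so that the groups stood apart by a small margin, and its change of 1.36 ± 0.42 (adjusted p = 0.0109) lost the call without Ela1-Myc replicate 2 or 3, with adjusted p-values of up to 0.0580. After scaling the groups of Icam2 overlapped, with a change of 0.24 ± 0.56 (adjusted p = 0.767). Summed over 9 lymphocyte markers, the libraries stood at 41.9, 0.419 and 0 in the WT libraries against 21.6, 210.9 and 132.7 in Ela1-Myc. WT replicate 1 and Ela1-Myc replicates 2 and 3 were the high libraries of their groups in that sum as well. None of the 9 markers was listed at 0 in WT replicate 1 or in any Ela1-Myc library, and 8 and 9 of them were in WT replicates 2 and 3. After scaling the lymphocyte sums were 99.4, 0.432 and 0 across WT replicates and 12.5, 135 and 66.7 across Ela1-Myc replicates, and the groups overlapped on both scales. The part of lymphocytes in the S1pr1 and Icam2 values was not tested.

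Of the remaining genes of this set, Cd34 (a sialomucin of endothelial and some stromal cells) was at 3.83, 5.61 and 3.29 across WT replicates and 11.0, 14.3 and 22.1 across Ela1-Myc replicates. Cd34 rose by 1.65 ± 0.48 log2 units (adjusted p = 0.00772), a call lost without Ela1-Myc replicate 3 (adjusted p = 0.0570), and Ela1-Myc replicate 3 was by far its highest library. Ramp2, the partner of the adrenomedullin receptor, rose by 1.62 ± 0.42 (adjusted p = 0.00407), from 3.75, 2.20 and 0.838 to 7.06, 9.89 and 8.26. Eng, the endothelial co-receptor for BMP and TGF-beta ligands, rose by 1.52 ± 0.46 (adjusted p = 0.0101), and WT replicate 2 at 6.19 stood far above WT replicates 1 and 3 at 2.18 and 1.54. The call of Eng was lost without WT replicate 3 or Ela1-Myc replicate 1, with adjusted p-values of up to 0.0579. Mmrn2, a matrix glycoprotein of vessel walls, rose by 0.96 ± 0.25 (adjusted p = 0.0043) and Robo4, a receptor that limits vessel leakage, by 0.73 ± 0.26 (adjusted p = 0.0213). The call of Mmrn2 was kept without each single library, while that of Robo4 was lost without WT replicate 1, WT replicate 3 or Ela1-Myc replicate 3 (adjusted p of up to 0.0621). After scaling the change was 0.32 for Cd34, 0.42 for Ramp2, 0.28 for Eng, 0.11 for Mmrn2 and -0.19 for Robo4, none of them called.

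A group of genes in the same set did not pass the test or was not tested. Emcn, a sialomucin found mainly on capillaries and veins, was at 1.72, 5.01 and 3.02 for the 3 WT libraries, compared with 6.63, 6.31 and 6.25 for those of Ela1-Myc, with a change of 0.87 ± 0.40 (adjusted p = 0.0639), and of -0.33 ± 0.20 once scaled. Vwf, the clotting factor stored by endothelial cells and platelets, overlapped between the groups, at 1.00, 0.735 and 0.523 in the WT libraries against 0.972, 1.71 and 2.14 in Ela1-Myc (0.56 ± 0.27, adjusted p = 0.0735, and -0.25 ± 0.29 after scaling). Nos3, the endothelial nitric oxide synthase, and Ptprb, the phosphatase that acts on Tek and Cdh5, had means below 1 and were not tested. Nos3 stood at 0.0615 to 0.187 in WT and 0.390 to 0.586 in Ela1-Myc, with no overlap on the deposited scale and with overlap after scaling. Ptprb stood at 0.465 to 1.03 in WT and 0.651 to 1.56 in Ela1-Myc, and its groups overlapped, while after scaling all Ela1-Myc values were below all WT values.

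**Figure D2:**
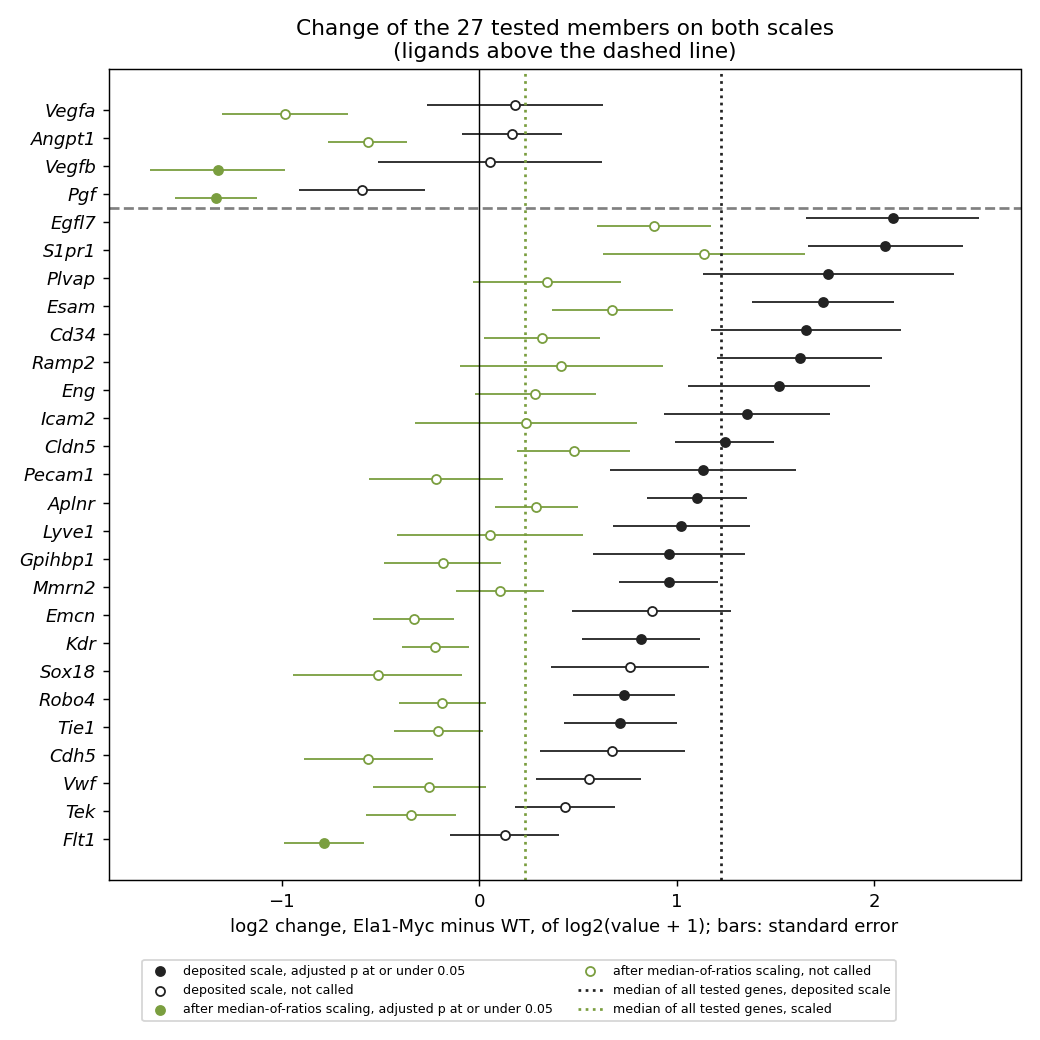
Log2 change (x axis, Ela1-Myc minus WT, of log2(value + 1)) with its standard error for the 27 tested genes (y axis), on the deposited scale (black) and after median-of-ratios scaling (green); filled symbols have an adjusted p at or under 0.05, and dotted lines mark the median of all tested genes at 1.22 and 0.23. The 4 ligands at the top each lie to the left of the line of their scale, and all 23 endothelial genes lie to the right of 0 on the deposited scale. On that scale 70.2% of all tested genes were called higher, and the share with an estimate above 0 was not counted.

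Among the receptors, Kdr and Tie1 rose on the deposited scale and Flt1 fell after scaling. Kdr (chromosome 5, 75933270 to 75978428), the main signalling receptor for VEGF-A, was at 1.19, 2.05 and 1.36 across WT replicates and 3.49, 3.08 and 3.72 across Ela1-Myc replicates. All Ela1-Myc libraries were above WT on the deposited scale (0.82 ± 0.30, adjusted p = 0.0247) and all were below WT after scaling (-0.22 ± 0.17, adjusted p = 0.347). The Kdr call was kept only without WT replicate 2, and the highest adjusted p without another library was 0.0984. Flt1 (chromosome 5, 147562196 to 147725988), which binds VEGF-A, VEGF-B and PlGF and acts largely as a decoy, was at 1.17, 1.67 and 1.48 for the 3 WT libraries, compared with 2.04, 1.10 and 1.93 for those of Ela1-Myc. The groups of Flt1 overlapped, with a change of 0.13 ± 0.27 (adjusted p = 0.67). After scaling its values were 2.78, 1.73 and 2.63 in the WT libraries against 1.18, 0.702 and 0.973 in Ela1-Myc, all below WT, with a change of -0.78 ± 0.20 (adjusted p = 0.0323). That scaled call was kept without WT replicate 2 and lost without any other single library, with adjusted p-values of up to 0.124.

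Tie1 (chromosome 4, 118471191 to 118489849), an orphan-type partner of Tek, was at 0.863, 1.07 and 1.05 across WT replicates and 2.85, 1.36 and 2.86 across Ela1-Myc replicates. Its WT libraries lay close together and below all Ela1-Myc libraries, of which replicate 2 was the lowest (0.71 ± 0.29, adjusted p = 0.0374, and up to 0.136 without WT replicate 1 or 3 or Ela1-Myc replicate 1 or 3). Tek, the angiopoietin receptor, overlapped between groups, with 0.551 to 1.09 in WT and 1.07 to 1.81 in Ela1-Myc (0.44 ± 0.25, adjusted p = 0.131). After scaling Tie1 changed by -0.21 and Tek by -0.34, neither called. Flt4, the receptor for VEGF-C on lymphatic and fenestrated endothelium, had a mean below 1, at 0.0854, 0.192 and 0.240 for the 3 WT libraries, compared with 0.845, 0.661 and 1.07 for those of Ela1-Myc. Its groups did not overlap on the deposited scale, and they overlapped after scaling.

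Of the 4 transcription factors, Erg, Sox7 and Sox17 had means below 1 and were not tested. Sox18, a SOX factor of vessel and lymphatic development, stood among the higher genes, at place 5 of the 35 genes above 0 in every library by mean level in WT and at place 8 in Ela1-Myc. It was at 5.31, 3.39 and 2.76 in the WT libraries against 7.35, 7.59 and 6.11 in Ela1-Myc, above all WT libraries, but did not pass the test (0.76 ± 0.40, adjusted p = 0.0976, and -0.51 ± 0.43 after scaling). Erg, the ETS factor that maintains endothelial identity, was at 0.108 to 0.393 in WT and at 0.524 to 0.822 in Ela1-Myc, and its groups overlapped after scaling. Sox7, a close relative of Sox18, differed little on the deposited scale, at 0.430, 0.526 and 0.383 across WT replicates and 0.454, 0.381 and 0.507 across Ela1-Myc replicates, and its means were 0.446 ± 0.0731 and 0.447 ± 0.0636 (SD, n = 3 each). After scaling all its Ela1-Myc values were below all WT values. Sox17, which marks arterial endothelium, overlapped between the groups on both scales and was at 0.00409 in WT replicate 3.

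ETS factors such as Erg bind a GGAA core in the promoters of many endothelial genes, and MYC binds the E-box CACGTG. To let the letters be read beside the levels, the promoters of 3 receptors and 2 ligands are shown, of which Tie1 and Kdr rose on the deposited scale and Flt1, Vegfa and Pgf did not. Each is the 250 bases before a start annotated in RefSeq (GRCm38.p6, minus strand), the outermost start of the gene where several windows were on hand. Matches to AGGAAG and GGAAGT, longer sequences that contain the core, are in capitals, and the core alone was not searched for. The Tie1 window is chr4:118489850-118490099 and holds 1 match to AGGAAG and 1 to GGAAGT, both on the other strand. The Kdr window is chr5:75978456-75978705 and holds 1 match to GGAAGT, also on the other strand. The Flt1 window is chr5:147726012-147726261 and holds 2 matches to AGGAAG and 1 to GGAAGT, which overlaps the second of them. The windows shown for Vegfa (chr17:46032378-46032627) and Pgf (chr12:85177314-85177563) hold neither of these longer sequences, and none of the 5 holds CACGTG. The Vegfa window does hold the GGAA core itself on the other strand, read as TTCC.
Tie1: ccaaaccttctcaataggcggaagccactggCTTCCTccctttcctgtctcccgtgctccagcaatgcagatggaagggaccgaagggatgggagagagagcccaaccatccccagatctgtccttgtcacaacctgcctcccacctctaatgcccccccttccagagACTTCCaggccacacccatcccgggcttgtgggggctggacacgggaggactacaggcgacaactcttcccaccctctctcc
Kdr: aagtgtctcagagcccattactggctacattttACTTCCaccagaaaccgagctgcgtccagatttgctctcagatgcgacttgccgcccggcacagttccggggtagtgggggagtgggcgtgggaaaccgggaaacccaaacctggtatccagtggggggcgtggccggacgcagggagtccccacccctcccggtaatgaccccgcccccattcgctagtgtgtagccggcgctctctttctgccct
Flt1: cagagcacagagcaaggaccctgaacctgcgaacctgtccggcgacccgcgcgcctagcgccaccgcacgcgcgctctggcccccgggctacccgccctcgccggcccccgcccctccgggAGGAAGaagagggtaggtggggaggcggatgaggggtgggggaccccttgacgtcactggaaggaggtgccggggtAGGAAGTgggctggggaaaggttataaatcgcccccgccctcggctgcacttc
Vegfa: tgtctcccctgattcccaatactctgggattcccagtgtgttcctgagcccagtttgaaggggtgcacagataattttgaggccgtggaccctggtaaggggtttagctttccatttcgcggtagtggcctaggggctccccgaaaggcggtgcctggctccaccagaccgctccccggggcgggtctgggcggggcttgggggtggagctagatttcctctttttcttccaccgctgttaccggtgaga
Pgf: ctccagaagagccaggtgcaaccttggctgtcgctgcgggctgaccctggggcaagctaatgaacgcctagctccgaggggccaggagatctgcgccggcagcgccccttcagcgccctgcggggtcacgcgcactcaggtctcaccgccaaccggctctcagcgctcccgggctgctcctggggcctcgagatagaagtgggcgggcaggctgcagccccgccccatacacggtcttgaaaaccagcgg
RefSeq windows of 300 bases (250 before and 50 after a start) were on hand for 17 of the 36 genes, 23 windows in all. On either strand AGGAAG was found in 10 of the 23 windows and in 35.4% of all 32851 windows, and GGAAGT, which overlaps it in GGAAG, in 7 of 23 and 23.8%. CACGTG was in 0 of 23 windows and in 7.15% of all. ACGTG, the core bound by hypoxia-inducible factors, was in 1 of 23 and in 19.6% of all. The genes with AGGAAG in at least 1 window were Apln, Cd34, Egfl7, Emcn, Eng, Erg, Flt1, Robo4 and Tie1, and those with GGAAGT were Egfl7, Eng, Flt1, Kdr, Tie1 and Vegfa. Genes with a match thus included both genes that rose and genes that were not called, such as Flt1, Emcn and Erg. In Vegfa the matches to GGAAGT and ACGTG lie in its other window, chr17:46025114-46025413, which is not shown. These matches are descriptions of the letters in the windows.

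All 4 tested genes of particular vessel beds rose on the deposited scale, where 70.2% of all genes did, with a median change of 1.06, beside 1.22 over all genes (0.17 after scaling, beside 0.23, with 0 of 4 called). Plvap (chromosome 8, 71497753 to 71511769) forms the diaphragms of fenestrae and was the highest endothelial gene in both groups. It was at 8.46, 20.4 and 5.52 for the 3 WT libraries, compared with 43.6, 35.0 and 31.3 for those of Ela1-Myc. Its Ela1-Myc libraries were all above WT, with means of 11.5 ± 7.87 and 36.6 ± 6.34 (SD, n = 3 each), and the change was 1.77 ± 0.63 (adjusted p = 0.0232), against 0.34 ± 0.38 on the other scale (adjusted p = 0.513). The call was lost without any single library other than WT replicate 2, whose Plvap level was the highest of its group, with adjusted p-values of up to 0.125. Gpihbp1, which carries lipoprotein lipase to the capillary lumen, rose from 2.06, 3.97 and 1.27 to 6.85, 5.07 and 4.35 (0.96 ± 0.38, adjusted p = 0.0374) and depended on the same libraries, with adjusted p-values of up to 0.196. Its change after scaling was -0.18 ± 0.30.

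Aplnr (chromosome 2, 85136360 to 85139923), the apelin receptor of sprouting and venous endothelium, was at 0.385, 0.457 and 0.780 in the WT libraries against 2.27, 2.01 and 2.63 in Ela1-Myc. All Ela1-Myc libraries were above WT, with a 4.26-fold higher mean and a change of 1.10 ± 0.25 (adjusted p = 0.00193), and this call was kept without each single library. After scaling it was 0.29 ± 0.21 (adjusted p = 0.332). Its ligand Apln and the proteoglycan Esm1, both known as genes of endothelial tip cells at the front of sprouts, had means below 1 and were not in the main test. Apln was at 0.231, 0.135 and 0.245 across WT replicates and 1.05, 0.663 and 1.53 across Ela1-Myc replicates. Esm1 was at 0.0276, 0.219 and 0.0771 for the 3 WT libraries, compared with 0.839, 0.340 and 0.862 for those of Ela1-Myc. Both had all Ela1-Myc values above all WT values on the deposited scale, and after scaling the groups of either gene overlapped.

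Lyve1, a hyaluronan receptor of lymphatic endothelium and of some macrophages, was at 1.78, 0.833 and 0.504 in the WT libraries against 1.71, 4.96 and 2.99 in Ela1-Myc. WT replicate 1 lay just above Ela1-Myc replicate 1, so that the groups overlapped, although it was called higher (1.02 ± 0.35, adjusted p = 0.0171), and the call was lost without WT replicate 2 or 3 or Ela1-Myc replicate 2 or 3 (adjusted p of up to 0.0877). After scaling the change was 0.056 ± 0.47 (adjusted p = 0.938). Summed over 13 macrophage markers the libraries stood at 33.2, 59.3 and 1.25 across WT replicates and 502, 1351 and 1090 across Ela1-Myc replicates. Of these 13 markers 6, 3 and 9 were listed at 0 in WT replicates 1 to 3 and none in Ela1-Myc, and the general macrophage marker Cd68 was listed at 0 in all 3 WT libraries. After scaling the macrophage sums were 78.9, 61.2 and 2.23 in the WT libraries against 290, 862 and 548 in Ela1-Myc, still apart. Summed over 6 lymphatic markers the libraries stood at 1.96, 1.25 and 0.713 for the 3 WT libraries, compared with 3.17, 6.99 and 7.02 for those of Ela1-Myc, and after scaling these groups overlapped, at 4.66, 1.30 and 1.27 and at 1.83, 4.46 and 3.53. Prox1, the transcription factor that defines lymphatic endothelium, was at 0.0836 in WT replicate 2, listed at 0 in the other WT libraries, and at 0.458, 0.452 and 0.993 in Ela1-Myc. The part of either cell type in the Lyve1 values was not tested.

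Of the 9 genes below the filter, a fit over all 23099 symbols with no filter called 5 higher (36.7% of all were called higher in that fit) and 0 lower (0.108%). Those shares also cover the genes above the filter, and none was taken over the genes below it alone. The 5 called higher were Nos3 (0.38 ± 0.08 log2 units, adjusted p = 0.0196), Flt4 (0.66 ± 0.14, 0.0172), Apln (0.77 ± 0.19, 0.0275), Esm1 (0.59 ± 0.16, 0.0314) and Angpt2. The other 4, Ptprb, Erg, Sox7 and Sox17, were not called, at adjusted p-values of 0.407, 0.0526, 0.992 and 0.25.

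Among the ligands, none of the 4 tested was called on the deposited scale, and Vegfb and Pgf fell after scaling. Vegfa (chromosome 17, 46016993 to 46032377), the main growth factor for vessels, was at 2.68, 6.34 and 2.25 in the WT libraries against 5.43, 1.89 and 5.92 in Ela1-Myc. WT replicate 2 was the highest library of all and Ela1-Myc replicate 2 the lowest, so that the groups overlapped fully (0.18 ± 0.44, adjusted p = 0.709). After scaling Vegfa was at 6.37, 6.55 and 4.01 across WT replicates and 3.13, 1.20 and 2.98 across Ela1-Myc replicates, all below WT, and the change of -0.98 ± 0.32 did not pass the test (adjusted p = 0.0615). Vegfb (chromosome 19, 6982472 to 6987651), a ligand of Flt1 with a weaker effect on vessel growth, was the highest ligand. It was at 6.94, 17.6 and 11.8 for the 3 WT libraries, compared with 19.4, 7.44 and 11.3 for those of Ela1-Myc, with overlapping groups (0.056 ± 0.57, adjusted p = 0.929). After scaling its values were 16.5, 18.1 and 21.1 in the WT libraries against 11.2, 4.75 and 5.69 in Ela1-Myc. All of these Ela1-Myc values were below WT, with a change of -1.32 ± 0.34 (adjusted p = 0.0325), and the call was lost without WT replicate 2 or 3 or Ela1-Myc replicate 2 or 3 (adjusted p of up to 0.118).

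Pgf (chromosome 12, 85166641 to 85177285), placental growth factor, another ligand of Flt1, was the only tested gene of the 27 with a lower estimate in Ela1-Myc on the deposited scale. It was at 0.813, 3.51 and 1.51 across WT replicates and 0.768, 0.733 and 0.958 across Ela1-Myc replicates. WT replicate 2 was the highest by a wide margin and WT replicate 1 lay within the range of Ela1-Myc, so the groups overlapped (-0.59 ± 0.32, adjusted p = 0.104). Without WT replicate 1 Pgf was called lower on that scale (-0.89, adjusted p = 0.0277). After scaling it was at 1.93, 3.63 and 2.69 for the 3 WT libraries, compared with 0.444, 0.468 and 0.482 for those of Ela1-Myc, with a change of -1.33 ± 0.21 (adjusted p = 0.00657). That call was kept without each single library, with adjusted p-values from 0.00631 to 0.0435. Pgf was also called lower after quantile normalization (-1.77, adjusted p = 0.0041) and with the digestive enzymes left out and equal library totals (-1.40, adjusted p = 0.00784).

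The angiopoietins bind Tek with different outcomes: Angpt1, made by cells around the vessel, activates the receptor, and Angpt2, stored by the endothelial cells themselves, often blocks it. Angpt1 was at 0.520, 1.00 and 1.16 in the WT libraries against 0.906, 0.998 and 1.45 in Ela1-Myc, with overlapping groups (0.17 ± 0.25, adjusted p = 0.546, and -0.56 ± 0.20 after scaling, adjusted p = 0.0787). Angpt2 (chromosome 8, 18691337 to 18741551) was at 0.0432 and 0.106 in WT replicates 1 and 3, was listed at 0 in WT replicate 2, and was at 0.372, 0.776 and 0.873 in Ela1-Myc. It was the only ligand with all Ela1-Myc values above all WT values, and this order held on both scales. Its mean was below 1, and in the fit with no filter its change was 0.66 ± 0.13 (adjusted p = 0.0159), with the listed 0 taken as a measured value.

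Ratios to Cdh5 within each library compare the genes with no further scaling of the deposited values between libraries. Of the 34 other genes above 0 in all 6 libraries, 10 (29.4%) had all Ela1-Myc ratios above all WT ratios, against 31.8% of all genes, and 2 (5.88%) had all below, against 2.66%. The 10 were Esam, Egfl7, Cldn5, Mmrn2, Cd34, Ramp2, S1pr1, Flt4, Aplnr and Apln, and the 2 were Sox7 and Pgf. The ratio of Egfl7 to Cdh5 was 0.403, 1.15 and 0.541 across WT replicates and 1.85, 2.72 and 1.90 across Ela1-Myc replicates. That of Cldn5 was 0.155, 0.0602 and 0.0921 for the 3 WT libraries, compared with 0.313, 0.452 and 0.369 for those of Ela1-Myc. For both genes every Ela1-Myc library was above every WT library, while the ratio of Pecam1 to Cdh5 overlapped, at 1.46 to 1.91 in WT and 1.77 to 2.82 in Ela1-Myc. The ratio of Pgf to Cdh5 was 0.209, 0.996 and 0.625 in the WT libraries against 0.135, 0.130 and 0.162 in Ela1-Myc, a mean 0.233 times that of WT. The ratio of Sox7 was 0.110, 0.149 and 0.158 across WT replicates and 0.0796, 0.0677 and 0.0857 across Ela1-Myc replicates. Set against Pecam1 in place of Cdh5, 5 genes lay wholly above (Esam, Egfl7, Cldn5, Cd34 and S1pr1; 14.7%, against 18.1% of all genes) and 3 wholly below (Flt1, Sox7 and Pgf; 8.82%, against 5.47%). The ratio of Flt1 to Pecam1 was 0.206, 0.248 and 0.370 for the 3 WT libraries, compared with 0.203, 0.0693 and 0.143 for those of Ela1-Myc, with WT replicate 1 and Ela1-Myc replicate 1 nearly equal.

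**Figure D3:**
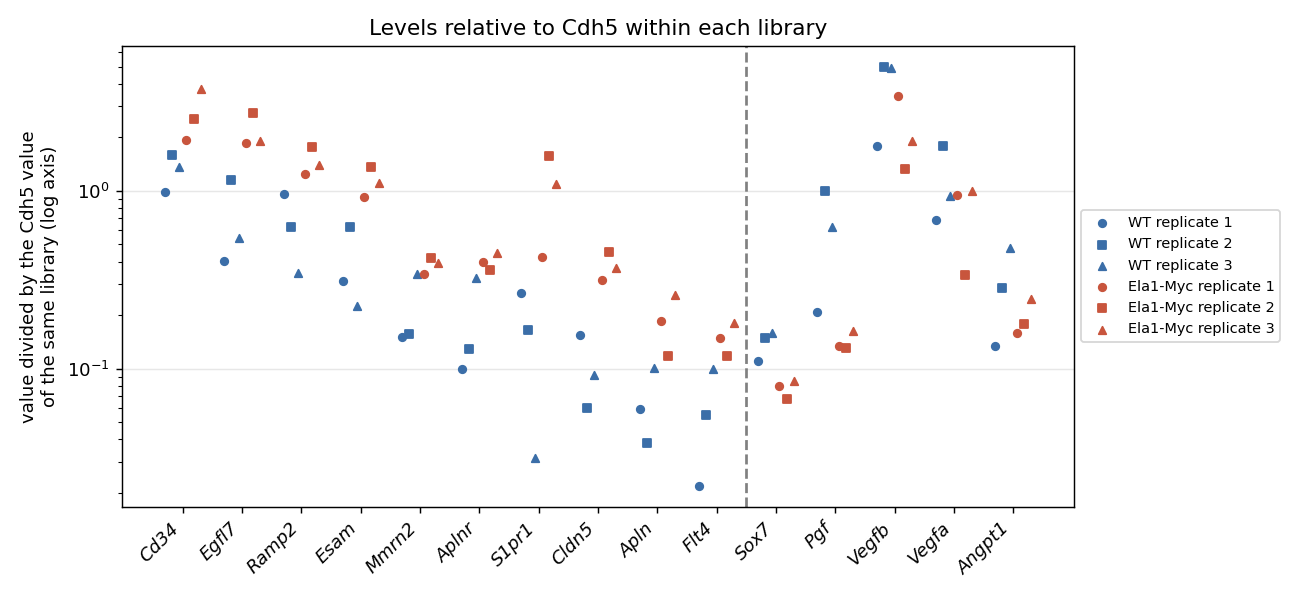
Value divided by the Cdh5 value of the same library (y axis, log scale) for 15 genes (x axis) in the 3 WT (blue) and 3 Ela1-Myc (red) libraries, with the 10 genes whose Ela1-Myc ratios all lie above WT on the left of the dashed line. On the right, Sox7 and Pgf lie wholly below WT, and Vegfb, Vegfa and Angpt1 overlap.

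The order of the levels among the 35 genes above 0 in every library also differed between the groups. By mean level per transcript length, Vegfb took place 1 in WT and place 4 in Ela1-Myc, and Plvap places 2 and 1. S1pr1 moved from place 26 to place 12, Egfl7 from 11 to 5 and Esam from 17 to 9, while Pgf moved from 13 to 30. The top places did not differ beyond the spread of their libraries in WT, where Vegfb at 12.1 ± 5.32 and Plvap at 11.5 ± 7.87 overlapped. In Ela1-Myc Plvap at 36.6 ± 6.34 lay above Cd34 at 15.8 ± 5.71 and Pecam1 at 13.2 ± 2.91, and these last overlapped with Vegfb at 12.7 ± 6.12 (SD, n = 3 each).

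Other genes of the same pathways, from lists that were drawn up with earlier results of these data known, stood as follows on the deposited scale, beside 70.2% of all genes called higher. After scaling 18.3% of all genes were called higher and 8.02% lower. Of 11 tested genes of other VEGF, angiopoietin and growth factor signalling 8 rose and 0 fell (2 rose and 0 fell after scaling, median change 1.39 and 0.38). Pdgfa, a platelet-derived growth factor chain, had the largest change (1.94 ± 0.56, adjusted p = 0.00798), with Ela1-Myc replicate 1 far above the rest at 19.7. Svep1, a large matrix protein, rose by 1.62 ± 0.29 (adjusted p = 0.000411) and Angptl2, an angiopoietin-like secreted protein, by 1.55 ± 0.35 (adjusted p = 0.00173). Of 29 tested other endothelial genes 23 rose and 0 fell (3 and 2 after scaling, median 1.49 and 0.38), led by Cav1, the coat protein of caveolae (2.01 ± 0.56, adjusted p = 0.00621), 1190002H23Rik, an older symbol of Rgcc (1.59 ± 0.39, adjusted p = 0.0031), and Ecscr, an endothelial cell-surface regulator (1.57 ± 0.32, adjusted p = 0.000926). All 8 tested genes of endothelial Notch and BMP signalling rose (2 after scaling, median 1.09 and 0.14), among them the BMP receptor Acvrl1 (1.30 ± 0.29, adjusted p = 0.00162), the venous marker Ephb4 (1.16 ± 0.34, adjusted p = 0.00824) and Notch1 (1.03 ± 0.28, adjusted p = 0.00529). After scaling none of these 9 named genes was called.

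All 5 tested markers of mural cells, the pericytes and smooth muscle cells that wrap vessels, rose on the deposited scale, where 70.2% of all genes did (median change 1.51, and 0.47 after scaling). Rgs5, a pericyte gene, was at 0.533, 1.8 and 0.876 in the WT libraries against 6.80, 7.50 and 10.2 in Ela1-Myc. All Ela1-Myc libraries were above WT on both scales, with a change of 2.18 ± 0.36 (adjusted p = 0.000215) and of 1.13 ± 0.19 after scaling (adjusted p = 0.00886), the call that this list kept after scaling. Tagln, a smooth muscle protein, rose by 1.74 ± 0.35 (adjusted p = 0.000835) and Des, the intermediate filament of muscle cells, by 1.51 ± 0.43 (adjusted p = 0.00703), neither called after scaling. Summed over 11 mural markers the libraries stood at 12.2, 7.36 and 6.38 across WT replicates and 27.5, 40.8 and 43.6 across Ela1-Myc replicates. After scaling the mural sums were 28.9, 7.60 and 11.4 in the WT libraries against 15.9, 26.0 and 21.9 in Ela1-Myc, so that the groups overlapped and WT replicate 1 was the highest library. The only tested lymphatic marker, Pdpn, which is also carried by stromal cells, rose by 1.28 ± 0.35 (adjusted p = 0.0057; 0.24 ± 0.44 after scaling, adjusted p = 0.706).

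All 6 tested inhibitors of angiogenesis rose on the deposited scale, where 70.2% of all genes did, with a median change of 1.68. After scaling the median was 0.78 and 2 of the 6 were called higher, beside 18.3% of all genes. Thbs1, the matrix protein thrombospondin, was at 0.431, 1.46 and 0.388 for the 3 WT libraries, compared with 4.65, 6.70 and 5.89 for those of Ela1-Myc. Its groups stood apart on both scales, with a change of 1.98 ± 0.33 (adjusted p = 0.000227) and of 1.06 ± 0.23 after scaling (adjusted p = 0.0199). Serpinf1, which encodes the factor PEDF, rose by 2.10 ± 0.52 (adjusted p = 0.00322) and Timp3, an inhibitor of matrix proteases that also blocks Kdr, by 1.94 ± 0.41 (adjusted p = 0.00112), neither called after scaling. Both still had all Ela1-Myc values above all WT values after scaling. Of the 8 listed inhibitors above 0 in all libraries 5 did, Thbs1 among them, beside 17.8% of all such genes. Of 12 tested genes of the hypoxia response 8 rose and 0 fell, beside 70.2% and 0.239% of all genes, with a median change of 0.97. After scaling 2 rose and 3 fell, beside 18.3% and 8.02% of all genes, and the median was 0.12. The largest changes among those above 0 in all libraries were in Pdk1, which limits entry of pyruvate into mitochondria (1.95 ± 0.43, adjusted p = 0.00152), the glucose transporter Slc2a1 (1.45 ± 0.31, adjusted p = 0.00123) and the lipid droplet protein Hilpda (1.40 ± 0.35, adjusted p = 0.0033), none called after scaling. Of the 11 listed hypoxia genes above 0 in all libraries 2, Pdk1 and Slc2a1, lay wholly above WT after scaling and 4 wholly below, beside 17.8% and 18.2% of all such genes. Hif1a, the oxygen-regulated transcription factor that drives Vegfa, rose by 1.01 (adjusted p = 0.0102; -0.03 after scaling), and Epas1, its relative in endothelial cells, overlapped between the groups, at 1.88 to 3.58 in WT and 2.93 to 4.74 in Ela1-Myc.

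**Figure D4:**
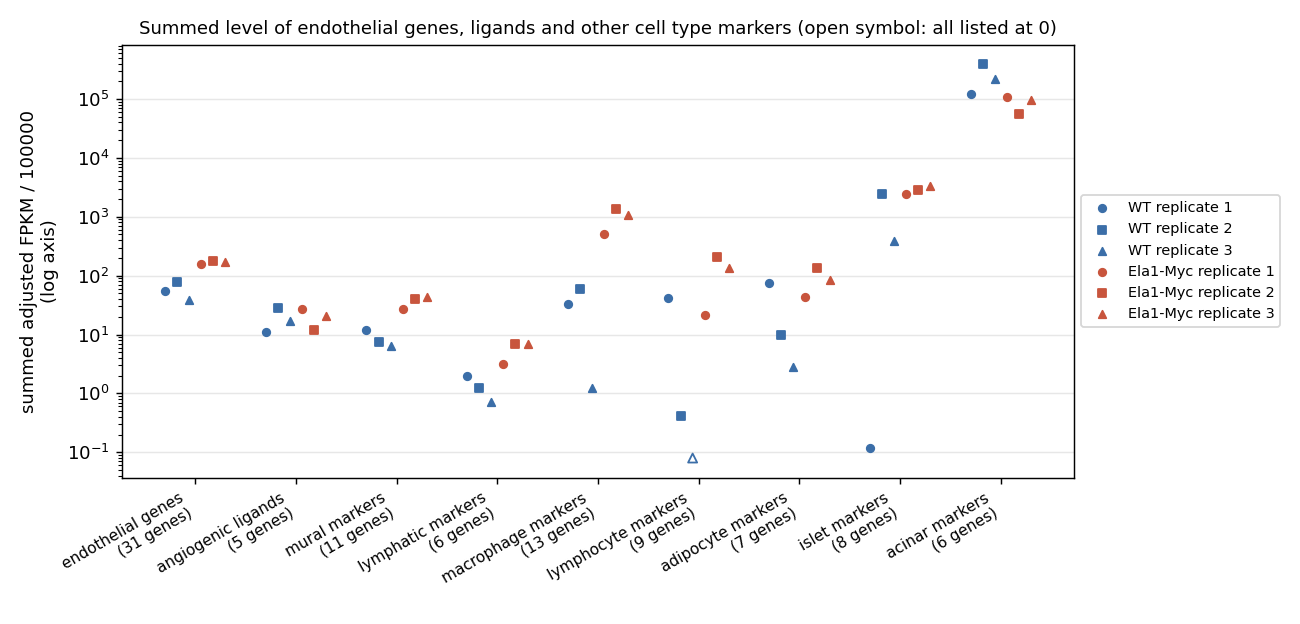
Summed adjusted FPKM divided by 100000 (y axis, log scale) of the endothelial genes, the ligands and markers of other cell types (x axis) in the 3 WT (blue) and 3 Ela1-Myc (red) libraries; the open symbol is a library with all markers listed at 0. The endothelial sums stand at 38.9 to 76.6 in WT and 157.3 to 176.2 in Ela1-Myc, and the ligand sums overlap.

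Among markers of other cell types, those of stellate cells stood higher in Ela1-Myc and those of acinar cells lower, on both scales, and those of adipocytes and islets overlapped between the groups. Summed over 6 markers of pancreatic stellate cells and fibroblasts, the libraries stood at 45.9, 94.3 and 46.6 in the WT libraries against 304, 404 and 468 in Ela1-Myc, and after scaling at 109, 97.4 and 82.8 against 176, 258 and 235. Of these 6 markers 3, 0 and 2 were listed at 0 in WT replicates 1 to 3 and none in Ela1-Myc. Acinar markers, the defining genes of the tissue, were above 0 in all 6 libraries. Summed over 6 of them the libraries stood at 119253, 387450 and 221513 across WT replicates and 107504, 56469 and 96254 across Ela1-Myc replicates, each Ela1-Myc library below each WT library. After scaling the acinar sums were 283247, 400187 and 394024 for the 3 WT libraries, compared with 62071, 36039 and 48419 for those of Ela1-Myc. Of the 6 acinar markers 3 fell on the deposited scale and 5 after scaling, where 0.239% and 8.02% of all genes did, and none rose. The 7 adipocyte markers summed to 76.3, 9.73 and 2.80 in WT and to 43.8, 136.7 and 84.6 in Ela1-Myc (181, 10.1 and 4.99 against 25.3, 87.2 and 42.6 after scaling). Of the 7, 0, 3 and 5 were listed at 0 in WT replicates 1 to 3 and none in Ela1-Myc. Islet markers summed to 0.116 in WT replicate 1, with 7 of 8 listed at 0, to 2477 and 392 in WT replicates 2 and 3, and to between 2444 and 3360 in Ela1-Myc, and after scaling the islet sums still overlapped. WT replicate 2, the library with the highest WT level for 16 of the 36 genes, also had the highest WT sums of stellate, islet and acinar markers on the deposited scale. It was the library with the largest summed value over all genes (1948844), and the same count over all genes was not made. After scaling the highest WT stellate sum was in replicate 1, and the highest islet and acinar sums stayed in replicate 2. The lowest WT level was in replicate 3 for 17 genes. The part of these cell types in the endothelial values was not tested.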

How the data were processed

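Whole-pancreas polyadenylated RNA of 3 WT and 3 Ela1-Myc libraries was analysed from the values the authors deposited, which are adjusted FPKM per the file headers. Extraction with phenol and chloroform, ERCC spike-in RNA and stranded (dUTP) libraries are named per the labels' protocols, whose stated RNA integrity minimum lies above the value given for 5 of the 6 samples. The submitters' processing notes name Cufflinks 2.0.2, TopHat2 2.0.4 with Bowtie, affy, FastQC 0.9.4 and CASAVA 1.8, with GRCm38 (mm10). The kind of adjustment made to FPKM is not stated in these sources. Spike-in values and counts were not used here, depth is unknown, and no counting interval is given.

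All values were divided by 100000. The 23422 rows include 187 repeated symbols, each reduced to its highest row by mean. Tests were run with limma 3.58.1 (R 4.3.3) on genes averaging at least 1, with an intensity trend, on log2(value + 1), two-sided, Benjamini-Hochberg adjusted over all 8802 genes, threshold 0.05, group only, and again after median-of-ratios scaling over tested genes above 0 in all libraries. With 3 against 3 libraries the smallest exact permutation p would be 0.1, so none is given. A gene listed at 0 gets no mean and no fold.

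The genes and all lists were chosen with earlier results of these data known. All 36 genes are named. From 7 other vascular lists the rule names up to 3 genes with the largest change among those called and above 0 in all libraries. Myc, Cd68, Prox1, Hif1a and Epas1 are outside that rule and were added after their values were seen. Other cell type lists are given as sums, and those for duct and for platelets and blood cells are in the closing section. Alternatives covered scaling, pseudocount, filter, listed zeros, array weights and leaving out each library. Promoter sequences are from RefSeq (GRCm38.p6). Python 3.11.15 with matplotlib 3.10.9 drew the figures.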

Additional observations from a re-analysis of the deposited data

How the results depend on the processing

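The scaling between libraries decided most calls, and depth, which is unknown, sets no stated limit. Members called higher numbered 17 and fell to 0 after median-of-ratios scaling, 0 after quantile normalization and 0 with the digestive enzymes left out and equal totals, and were 5 with a mean of at least 5, where fewer genes were tested. They ranged from 8 to 18 when 1 library was left out. Members called lower rose from 0 to 3, 7 and 2 under the same 3 scalings, were 1 (Pgf) with only genes above 0 in all 6 libraries and 1 (Pgf) with array weights, and ranged from 0 to 1 without 1 library. The endothelial median of 1.02 was 0.056, -0.33 and 0.086 under the 3 scalings, 1.58 with a pseudocount of 0.1, 1.69 with a pseudocount of 1 on the deposited scale, 1.62 with a mean of at least 5 and 1.38 with array weights. The ligand median of 0.11 was -1.15, -1.43 and -1.13 under the 3 scalings, -0.039 with array weights and -0.14 to 0.28 without 1 library. After median-of-ratios scaling, leaving out 1 library gave 0 to 3 members higher (Cldn5, Ramp2 and S1pr1 without WT replicate 1), 1 to 2 lower, an endothelial median of -0.14 to 0.19 and a ligand median of -1.29 to -0.89. Ratios to Pecam1 in place of Cdh5 gave 5 genes above WT and 3 below. No paired analysis was possible because the labels give no replicate numbers, and the numbers used here only name the libraries.

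Estimates that turned from higher to lower under median-of-ratios scaling were Pecam1 -0.22, Cdh5 -0.56, Emcn -0.33, Robo4 -0.19, Vwf -0.25, Kdr -0.22, Flt1 -0.78, Tek -0.34, Tie1 -0.21, Sox18 -0.51, Gpihbp1 -0.18, Vegfa -0.98, Vegfb -1.32 and Angpt1 -0.56. With the enzymes left out they were Pecam1 -0.17, Cdh5 -0.54, Emcn -0.29, Robo4 -0.17, Vwf -0.24, Kdr -0.19, Flt1 -0.81, Tek -0.34, Tie1 -0.19, Sox18 -0.49, Gpihbp1 -0.15, Vegfa -0.96, Vegfb -1.29 and Angpt1 -0.58. Quantile normalization gave Pecam1 -0.49, Cdh5 -0.91, Emcn -0.66, Icam2 -0.073, Robo4 -0.61, Mmrn2 -0.30, Vwf -0.67, Kdr -0.60, Flt1 -1.23, Tek -0.79, Tie1 -0.61, Sox18 -0.88, Gpihbp1 -0.50, Aplnr -0.10, Lyve1 -0.33, Vegfa -1.29, Vegfb -1.58 and Angpt1 -1.03. Array weights turned Vegfb to -0.088. Leaving out 1 library gave -0.046 to 0.58 for Vegfa and -0.28 to 0.36 for Vegfb. After scaling it gave -0.43 to 0.011 for Pecam1, -0.14 to 0.81 for Icam2, -0.10 to 0.20 for Mmrn2, -0.069 to 0.50 for Eng, -0.041 to 1.02 for Ramp2, -0.43 to 0.011 for Vwf, -0.067 to 0.53 for Plvap and -0.24 to 0.55 for Lyve1. The causes of these changes were not tested, and the other alternatives turned no estimate of a tested member.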

Other observations

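Blood cells and ducts were read from 2 further marker lists. Summed over 8 platelet and red cell markers, the libraries stood at 518, 277 and 1.53 across WT replicates and 362, 778 and 347 across Ela1-Myc replicates, with overlapping groups, and 0, 2 and 5 of the 8 were listed at 0 in WT replicates 1 to 3. Hbb-b1, a beta-globin chain of red cells, was at 135, 80.0 and 0 for the 3 WT libraries, compared with 108, 248 and 107 for those of Ela1-Myc (limma adjusted p = 0.0945). Summed over 6 duct markers, the libraries stood at 4.44, 76.1 and 7.60 in the WT libraries against 131, 258 and 278 in Ela1-Myc, where each library was above each WT library. Of these 6 markers 3, 0 and 2 were listed at 0 in WT replicates 1 to 3 and none in Ela1-Myc. After median-of-ratios scaling the duct sums were 10.6, 78.7 and 13.5 across WT replicates and 75.4, 165 and 140 across Ela1-Myc replicates, and WT replicate 2 lay within the range of Ela1-Myc.

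Car9, a carbonic anhydrase induced by low oxygen, had a listed 0 in every WT library and values of 19.4, 8.96 and 12.4 in Ela1-Myc, whereas Ndrg1 and Bnip3, of the same hypoxia list, overlapped between the groups on the deposited scale. After scaling Ndrg1 fell by 1.51 log2 units (limma adjusted p = 0.0106) and Bnip3 by 0.89 (adjusted p = 0.0365). Within the library, the ratio of the VEGF and semaphorin co-receptor Nrp2 to Cdh5 was 0.0317, 0.0498 and 0.0572 for the 3 WT libraries, compared with 0.365, 0.355 and 0.486 for those of Ela1-Myc, and that of Nrp1 was 0.524, 0.822 and 0.797 in the WT libraries against 1.27, 1.12 and 1.21 in Ela1-Myc. The Notch ligand Dll4 had ratios of 0.0301, 0.106 and 0.0469 across WT replicates and 0.136, 0.213 and 0.203 across Ela1-Myc replicates. For all 3 genes every Ela1-Myc ratio to Cdh5 was above every WT ratio, as for 31.8% of all genes. Set against Pecam1, Nrp2 and Dll4 still lay wholly above WT, as did 18.1% of all genes. The ratio of Nrp1 to Pecam1 overlapped, at 0.359 to 0.483 in WT and 0.397 to 0.721 in Ela1-Myc. These genes were chosen after their values were seen.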
